A study of Homo sapiens with 6 samples.

Results

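Metalloproteinases of the MMP, ADAM and ADAMTS families and their TIMP inhibitors were examined in RNA sequencing counts from the human neuroblastoma line SK-N-BE(2), an established tumour cell line. Members were the rows of the gene table whose name starts with MMP, ADAM, ADAMTS or TIMP followed by a digit, which gave 67 of 19937 genes. They comprised 24 MMP, 20 ADAM, 19 ADAMTS and 4 TIMP rows, and 1 of the MMP rows, MMP24OS, is a gene on the opposite strand from MMP24 and encodes no protease. The 6 libraries were 3 titled sgcon and 3 titled sgGPR91, where GPR91 is the succinate receptor encoded by SUCNR1 and the series describes its knockout. The genotype tags state the reverse, with sgcon tagged GPR91 knockout and sgGPR91 tagged Control. Groups are named here by title, and every direction is that of sgGPR91 relative to sgcon; if the tags are correct instead, each one is the opposite. All libraries, controls included, came from drug-treated cells, given as doxorubicin at 100 nmol/L in one label and as DOX at 1.5 μg/ml in another, both for 48 hours. Untreated cells were not analysed here. The labels say neither whether the knockout cells were 1 clone or a pool nor whether replicates were separate cultures, so p-values rest on differences among libraries of a group that could be only technical.

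Total counts ran from 7070189 to 10252425 per library, lowest in sgcon replicate 3. SUCNR1 (ENSG00000198829) held 1, 0 and 2 reads in sgcon and 1, 0 and 0 in sgGPR91. Its level could not be told apart between the groups at this depth (two-sided exact permutation p = 0.7, the smallest possible being 0.1) and did not settle which label is right. All 13 adrenergic neuroblastoma markers listed were detected and tested, and 10 of them were lower and 2 higher (CHGB and ELAVL4) in sgGPR91, with summed levels of 7246 to 8124 CPM (reads scaled to library size, as throughout) in the sgcon libraries and 5414 to 5864 CPM in the sgGPR91 libraries. Of 13 tested mesenchymal markers, 6 were higher and 2 lower, with sums of 1598 to 1769 CPM against 1899 to 1975 CPM. For both lists, the share over all genes, by the test described below, was 20.2% higher and 21.0% lower. Schwann cell markers summed to 3.69 to 6.66 CPM in sgcon and 7.26 to 9.79 CPM in sgGPR91, without overlap. Leukocyte and endothelial markers summed to 0.890 to 2.57 CPM in sgcon and 2.42 to 4.43 CPM in sgGPR91, with overlap. The 1 tested, CD14, was higher (log2 fold change 1.72, adjusted p = 0.00936, with 3 to 8 reads per sgcon library and 13 to 20 per sgGPR91 library), and CD68, LYZ and CD3E were at 0 reads throughout. CD14 passed the filter on low counts, described below, only through the sgGPR91 libraries, so its direction was bound to be higher. The part of these marker shifts in the results below was not tested.

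Matrix metalloproteinases (MMPs) are zinc-dependent enzymes that cut collagens, fibronectin and other matrix proteins, and most are made as inactive precursors whose propeptide must be removed. ADAMs are membrane-anchored relatives, several of which shed the outer part of growth factors, Notch receptors and adhesion molecules from the cell surface, while ADAMTS enzymes are secreted and cut proteoglycans, procollagens and other matrix proteins. TIMPs bind the active site of these enzymes and block them, and TIMP2 also takes part in activating the MMP2 precursor on MMP14 at the cell surface. MMP2 has long been studied in the invasion of matrix by neuroblastoma cells. RNA levels do not show how much enzyme was made or active, and in bulk samples fewer cells with a transcript and less of it per cell cannot be told apart.

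Of the 67 members, 38 passed the filter on low counts and were tested by edgeR's quasi-likelihood test across all 12701 genes that passed. At a Benjamini-Hochberg adjusted p under 0.05, 19 tested members were higher and 8 lower in sgGPR91, so 27 of the 38 passed the test and 11 did not. Over all genes tested 41.1% passed, with 20.2% higher and 21.0% lower. The median log2 fold change was 0.30 over the tested members and -0.01 over all genes tested. By family, the counts were 7 higher and 1 lower of 11 tested MMP rows, 7 higher and 2 lower of 11 ADAMs, 4 higher and 5 lower of 14 ADAMTS genes, and 1 higher of 2 TIMPs. A difference of at least 2-fold was reached by 6 higher and 5 lower members, against 7.0% of all genes tested in both directions together. In 30 of the 38 the libraries of the 2 groups did not overlap, against 50.9% of all genes tested. Members that passed the count filter only through the group where they are high had to differ, so these counts describe tested members and not the whole families.

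**Figure D1:**
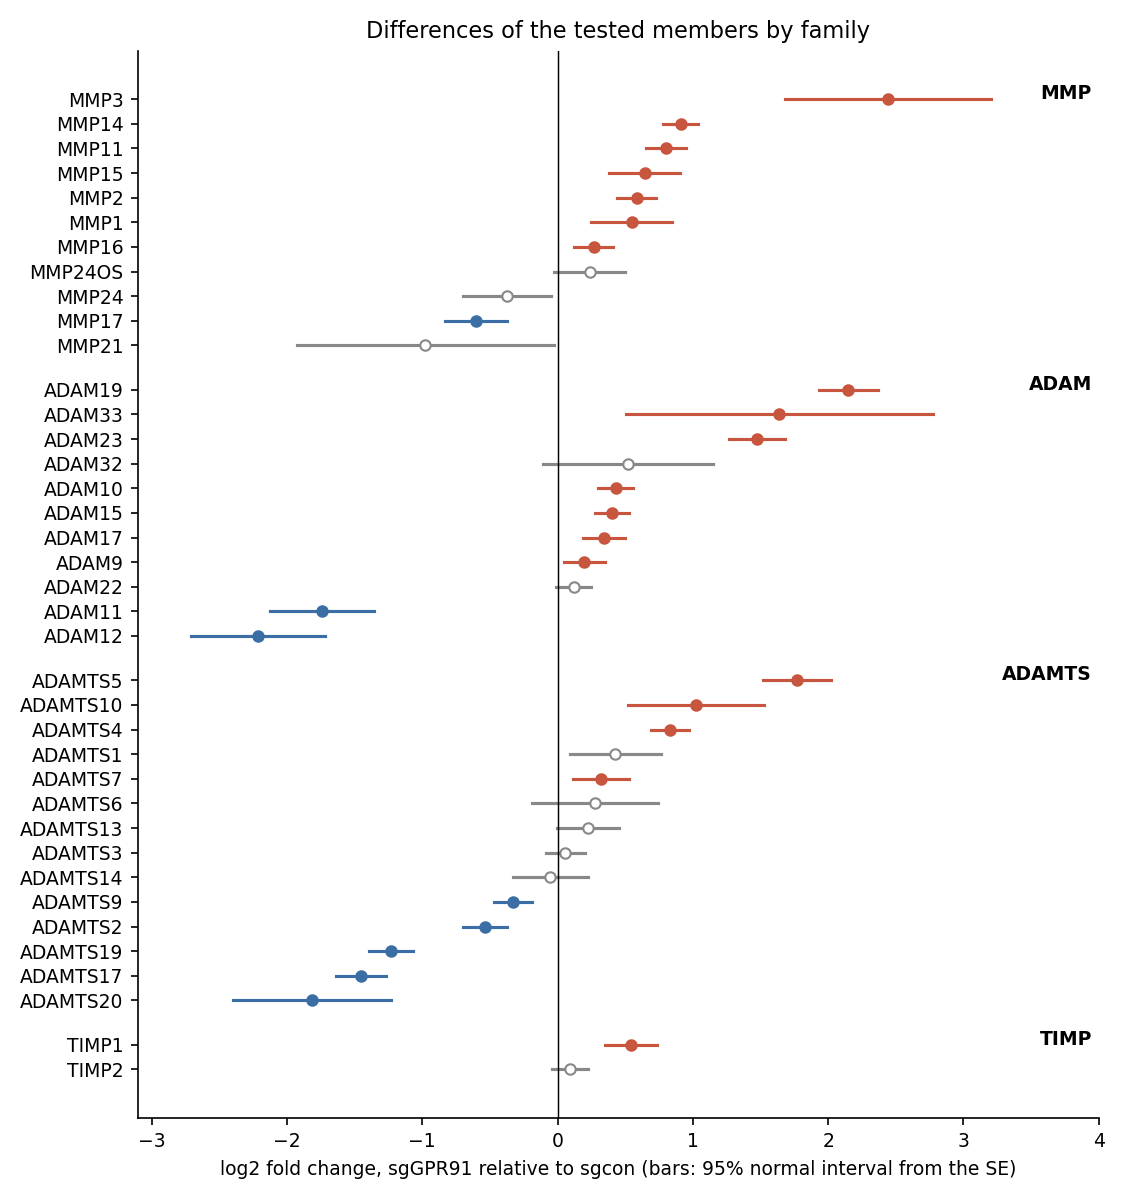
Log2 fold change of each tested member, sgGPR91 relative to sgcon, by family, with bars for the 95% normal interval from the standard error (red higher, blue lower, open grey did not pass). The MMP and ADAM points lie mostly to the right, with 7 higher in each family, whereas ADAMTS points lie on both sides, with 4 higher and 5 lower.

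Levels are compared between genes on FPKM, which divides reads by gene length. MMP2 had the highest level of all members in both groups, at 65.0 ± 3.15 in sgcon and 98.2 ± 3.29 in sgGPR91 FPKM (mean ± SD, n = 3 per group). The ± after a log2 fold change is its SE, and every other ± is an SD over 3 libraries. TIMP2 came next in both, at 51.5 ± 2.53 in sgcon and 55.2 ± 0.540 in sgGPR91 FPKM. Neither overlapped its neighbour in the order. In sgcon, MMP14, ADAMTS7, ADAMTS9 and ADAMTS19 followed at 28.5, 27.1, 25.2 and 22.9 FPKM, each overlapping the next of these, and ADAMTS19 did not overlap MMP11, the seventh. In sgGPR91, MMP14 stood at 53.7 FPKM, just under TIMP2 and without overlap, and MMP11 and ADAMTS7 followed at 36.1 and 33.9 FPKM with overlapping libraries. Most other members were far lower, and a mean of 10 FPKM or more in both groups was reached by 10 of the tested proteases and inhibitors.

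**Figure D2:**
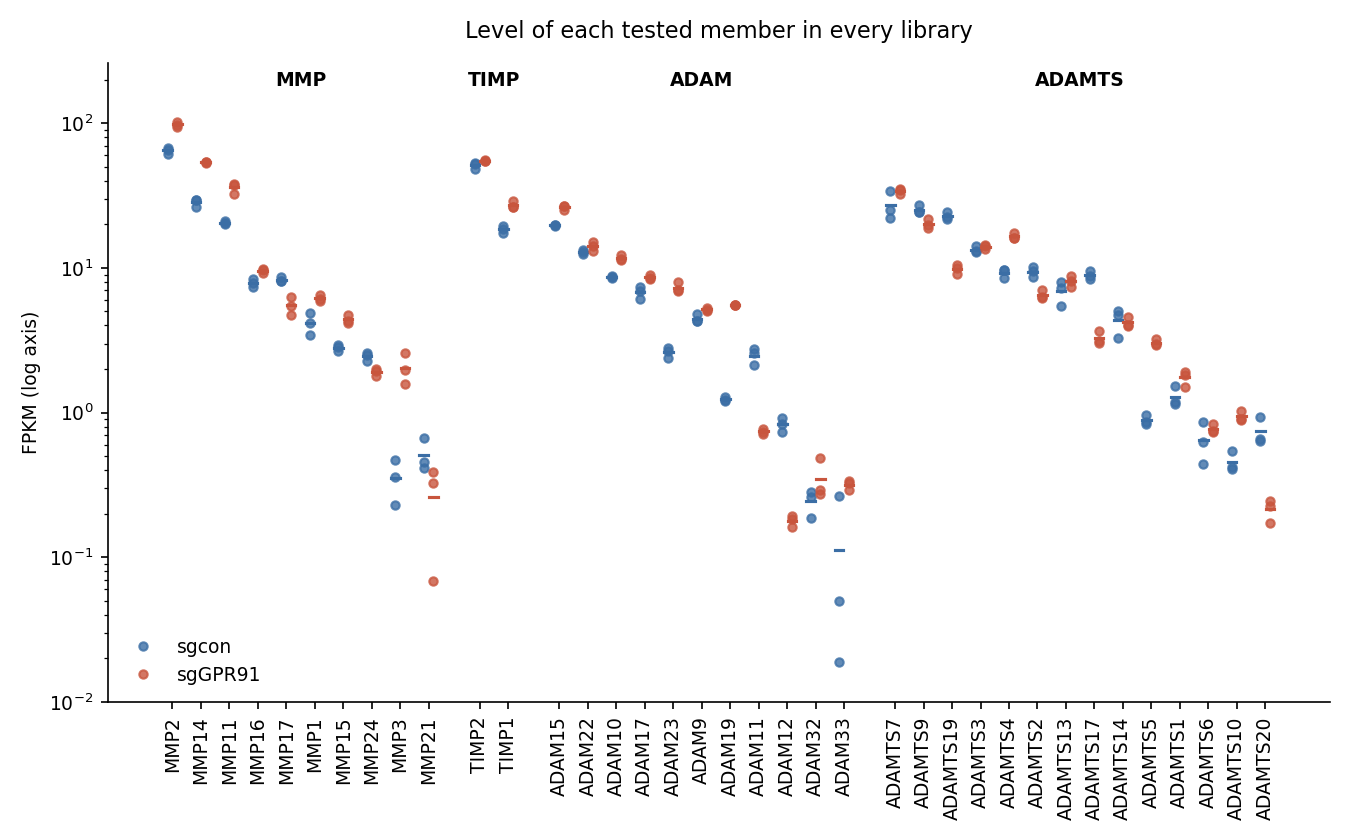
FPKM on a log axis for every tested member other than MMP24OS in each library (points) with the group mean (bar), sgcon in blue and sgGPR91 in red, ordered by level within each family. MMP2, TIMP2 and MMP14 lie at the top, and the groups stand far apart at ADAM19, ADAM12, ADAMTS5 and MMP3.

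Summed over the MMP genes, FPKM was 139, 146 and 139 in sgcon replicates 1, 2 and 3 and 217, 216 and 222 in the sgGPR91 replicates. The TIMP sum was 68.5, 71.7 and 71.5 in sgcon and 82.2, 85.2 and 81.8 in sgGPR91. Both sums were higher in every sgGPR91 library than in any sgcon library, and the MMP sum by more, so that the ratio of MMP to TIMP transcript went from 2.00 ± 0.0551 to 2.63 ± 0.0862. The ADAM sum was 60.6 ± 1.61 in sgcon and 80.8 ± 2.77 in sgGPR91, again without overlap. For ADAMTS genes the sums were 132 ± 9.99 and 124 ± 2.61 FPKM and the libraries overlapped. MMP2 made up 46.0 ± 1.33% of the MMP sum in sgcon and 45.0 ± 1.65% in sgGPR91, while the share of MMP14 went from 20.2 ± 1.24% to 24.6 ± 0.252%. These sums are given as description, without a test.

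Among secreted MMPs, the gelatinase, the collagenase and the stromelysins that could be tested were all higher in sgGPR91. The count filter shaped that set. MMP3 passed it only through sgGPR91, where it is high, so its direction was bound to be higher. The other gelatinase, MMP9, fell below the filter, with 28 reads in sgcon and 4 in sgGPR91. MMP21, a secreted MMP outside these subgroups, was tested and did not pass, with a lower fitted level in sgGPR91 (log2 fold change -0.98 ± 0.49, adjusted p = 0.12). MMP2 (ENSG00000087245, chromosome 16, 55389700 to 55506691, plus strand, in the table's coordinates, whose build is not named), gelatinase A, which cuts denatured collagen and type IV collagen, was at 313, 324 and 285 CPM in sgcon replicates 1, 2 and 3 and at 481, 444 and 459 CPM in the sgGPR91 replicates. Every sgGPR91 library lay above every sgcon library. The rise was 1.50-fold (log2 fold change 0.59 ± 0.07, SE, adjusted p = 9.34e-06). MMP11 (ENSG00000099953, chromosome 22, 23768226 to 23784316, plus strand), stromelysin 3, which is activated inside the cell by furin, was at 110.0, 105 and 104 CPM in sgcon and 167, 192 and 196 CPM in sgGPR91. The sgcon libraries were close together and the lowest sgGPR91 library, replicate 1, was still far above them. It rose 1.74-fold (log2 fold change 0.80 ± 0.07, adjusted p = 4.57e-07).

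MMP1 and MMP3 were low but rose as well. They lie in the MMP cluster on the long arm of chromosome 11, which holds 9 MMP rows between 102520508 and 102955732 in the table's coordinates, of which 5 had 0 reads in all libraries. MMP1 (ENSG00000196611, chromosome 11, 102789401 to 102798160, minus strand), interstitial collagenase, was at 9.62, 13.6 and 11.2 CPM in sgcon and 17.9, 16.6 and 16.0 CPM in sgGPR91, without overlap, a 1.46-fold rise (log2 fold change 0.55 ± 0.15, adjusted p = 0.00893). MMP3 (ENSG00000149968, chromosome 11, 102835801 to 102843609, minus strand), stromelysin 1, which can activate other MMP precursors, had 6, 9 and 3 reads in sgcon and 26, 39 and 31 in sgGPR91. All sgGPR91 libraries were above all sgcon libraries, and at these counts the fitted rise of 5.43-fold has a wide error (log2 fold change 2.44 ± 0.39, adjusted p = 0.00011). The other cluster members with reads, MMP10 and MMP12, held 1 and 0 reads in all of sgcon and 2 and 1 in all of sgGPR91.

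Among membrane-type MMPs, 3 of 5 tested were higher and 1 was lower. MMP14 (ENSG00000157227, chromosome 14, 22836560 to 22849041, plus strand), the transmembrane enzyme MT1-MMP that activates MMP2 and cuts fibrillar collagen, was at 124, 137 and 135 CPM in sgcon and 247, 247 and 249 CPM in sgGPR91. The sgGPR91 libraries were nearly identical to each other and far above sgcon. The rise was 1.88-fold (log2 fold change 0.91 ± 0.07, adjusted p = 3.25e-08). MMP15, encoding the transmembrane relative MT2-MMP, was at 12.5, 11.4 and 11.8 CPM in sgcon and 18.3, 17.5 and 19.9 CPM in sgGPR91, a 1.56-fold rise (log2 fold change 0.64 ± 0.13, adjusted p = 0.00114). MMP16, encoding MT3-MMP, was at 96.2, 102 and 88.1 CPM in sgcon and 112, 115 and 118 CPM in sgGPR91, 1.20-fold higher (log2 fold change 0.27 ± 0.07, adjusted p = 0.00858). Neither had overlapping groups. The MMP16 call ended without sgGPR91 replicate 3 (adjusted p = 0.0512). MMP17 (ENSG00000198598, chromosome 12, 131828393 to 131851783, plus strand), whose product MT4-MMP is held in the membrane by a lipid anchor instead of a transmembrane segment, went the other way. Its levels were 33, 35.3 and 31.8 CPM in sgcon and 22.1, 18.8 and 25.01 CPM in sgGPR91, without overlap, which is 1.52-fold lower (log2 fold change -0.60 ± 0.12, adjusted p = 0.000597). MMP24, encoding MT5-MMP, an enzyme of the nervous system, was at 10.8 ± 0.654 and 8.33 ± 0.556 CPM without overlap and did not pass (adjusted p = 0.0813), and neither did its opposite-strand neighbour MMP24OS at 19.3 ± 3.14 and 22.9 ± 1.85 CPM (adjusted p = 0.168). The 2 genes share 799 exon bases, and 16 of the 38 tested members share exon bases with some other gene in GENCODE release 29. Strand-specific counting is not stated, so reads from such shared bases cannot be told apart.

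Of the inhibitors, TIMP1 rose and TIMP2 did not pass. TIMP1 (ENSG00000102265, chromosome X, 47582408 to 47586789, plus strand), a secreted inhibitor of most soluble MMPs and a weak inhibitor of MMP14, was at 28.9, 25.7 and 26.2 CPM in sgcon and 38.7, 41.4 and 37.6 CPM in sgGPR91. The groups did not overlap, and the rise was 1.46-fold (log2 fold change 0.54 ± 0.10, adjusted p = 0.000331). TIMP2 (ENSG00000035862, chromosome 17, 78852977 to 78925387, minus strand) was at 279, 305 and 290.3 CPM in sgcon and 312, 312 and 308 CPM in sgGPR91. Its libraries did not overlap but lay close together, and the log2 fold change of 0.09 ± 0.07 had a 95% normal interval of -0.04 to 0.22 (adjusted p = 0.291). TIMP2 made up 73.1 ± 1.77% of TIMP FPKM in sgcon and 66.5 ± 0.829% in sgGPR91. TIMP3, the matrix-bound inhibitor that also blocks ADAM17 and the ADAMTS aggrecanases, had 7, 6 and 2 reads in sgcon and 10, 14 and 23 in sgGPR91 and fell below the count filter. TIMP4 had 0, 7 and 3 reads in sgcon and 5, 1 and 1 in sgGPR91, with overlapping groups.

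In the ADAM family, the close relatives ADAM19 and ADAM12 moved in opposite directions. ADAM19 (ENSG00000135074, chromosome 5, 157395534 to 157575775, minus strand), meltrin beta, a protease that sheds neuregulins, was at 10.1, 9.40 and 9.29 CPM in sgcon and 42.8, 42.5 and 42.5 CPM in sgGPR91. The libraries of each group lay within about 1 CPM of each other and the groups were far apart, with a rise of 4.43-fold (log2 fold change 2.15 ± 0.11, adjusted p = 6.57e-10). ADAM12 (ENSG00000148848, chromosome 10, 126012381 to 126388477, minus strand), meltrin alpha, which sheds HB-EGF, was at 7.38, 9.20 and 8.05 CPM in sgcon and 1.82, 1.57 and 1.89 CPM in sgGPR91. It was 4.64-fold lower without overlap (log2 fold change -2.22 ± 0.25, adjusted p = 3.8e-06). The fall of ADAM12 stands beside a shift of its chromosomal surroundings: the median log2 fold change of the 32 other tested genes within 5 Mb was -0.92, and the log2 fold change of ADAM12 minus that median was -1.30.

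**Figure D3:**
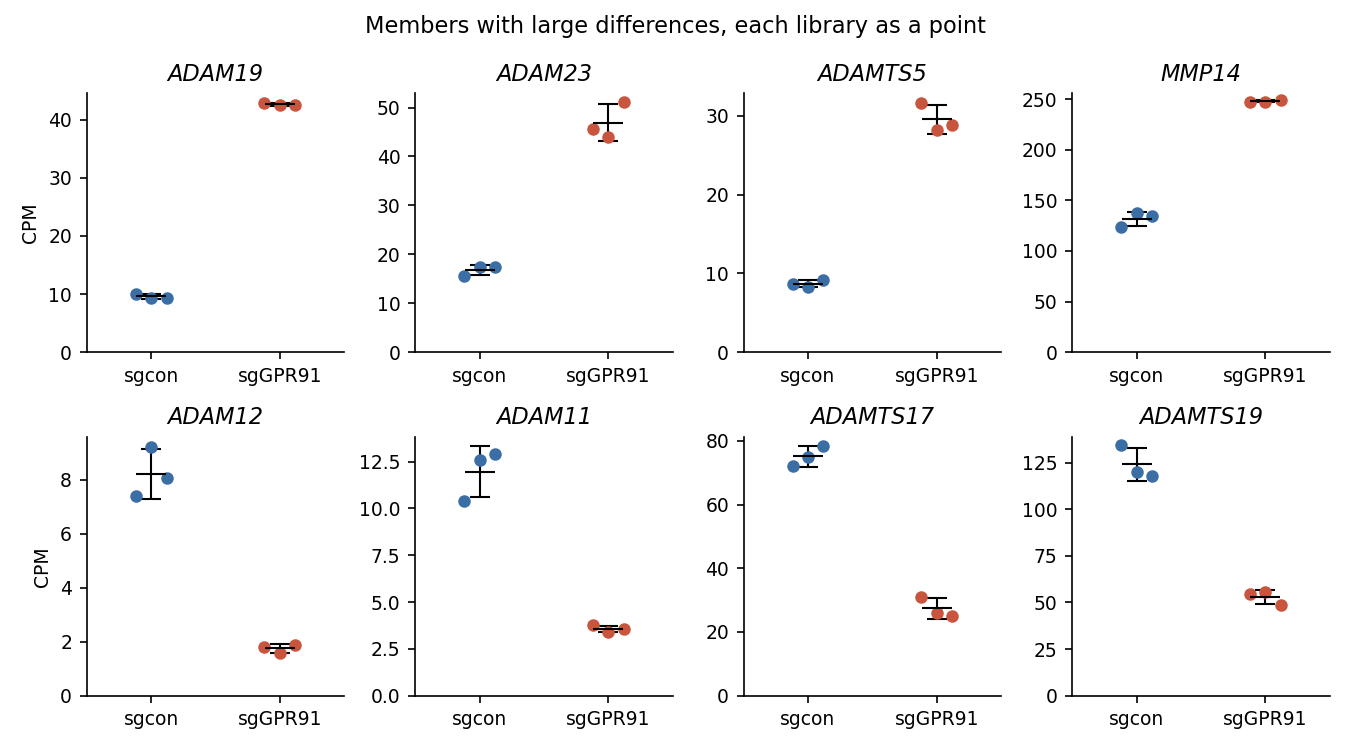
CPM, on axes starting at 0, in each library (points) with mean and SD (bars) for 8 members with large differences, 4 higher in sgGPR91 in the upper row and 4 lower in the lower row. No panel has overlapping groups, and the 3 sgGPR91 libraries of ADAM19 and MMP14 nearly coincide.

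Promoter sequence for 39 of the 67 members, 23 of them tested, was taken from RefSeq's GRCh38.p14 table. The 250 bases before the listed transcription start are printed for ADAM19 and ADAM12, the relatives that moved in opposite directions, and for MMP14 and TIMP1, an enzyme and an inhibitor that rose. They run 5′ to 3′ on the gene's strand, and capitals mark GC boxes (GGGCGG, sites of SP-family factors), searched on both strands.
ADAM19 (chr5:157575776-157576025, minus strand): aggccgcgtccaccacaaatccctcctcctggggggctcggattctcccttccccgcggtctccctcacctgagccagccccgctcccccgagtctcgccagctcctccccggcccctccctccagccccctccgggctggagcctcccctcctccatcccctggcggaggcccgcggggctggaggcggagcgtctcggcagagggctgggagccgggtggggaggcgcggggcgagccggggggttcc
ADAM12 (chr10:126388478-126388727, minus strand): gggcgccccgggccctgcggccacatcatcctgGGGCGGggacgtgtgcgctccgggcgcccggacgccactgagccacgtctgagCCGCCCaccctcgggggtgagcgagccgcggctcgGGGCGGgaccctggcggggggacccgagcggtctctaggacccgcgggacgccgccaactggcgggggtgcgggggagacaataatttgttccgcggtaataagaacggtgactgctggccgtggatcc
MMP14 (chr14:22836335-22836584, plus strand): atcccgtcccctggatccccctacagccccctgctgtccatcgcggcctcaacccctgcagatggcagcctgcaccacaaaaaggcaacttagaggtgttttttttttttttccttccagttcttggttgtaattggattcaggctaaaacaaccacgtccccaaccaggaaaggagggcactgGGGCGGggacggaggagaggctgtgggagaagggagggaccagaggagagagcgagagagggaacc
TIMP1 (chrX:47582186-47582435, plus strand): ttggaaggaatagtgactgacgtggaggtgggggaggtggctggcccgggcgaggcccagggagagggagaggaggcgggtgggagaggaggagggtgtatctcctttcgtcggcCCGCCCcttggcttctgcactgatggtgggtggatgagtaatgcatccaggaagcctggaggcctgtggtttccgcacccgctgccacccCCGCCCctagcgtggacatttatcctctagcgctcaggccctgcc
A GC box was found 3 times in the ADAM12 window, 2 times in that of TIMP1, 1 time in that of MMP14 and 0 times in that of ADAM19, where 76.4% of bases are G or C. Of the 23 tested members with a window, 20 held a GC box, against 42.6% of 35116 RefSeq promoters. Those promoters, here and for the motifs below, were not limited to genes that passed the count filter. The 2 sets are therefore unlike, and the shares are given as description. A TATA box (TATAAA) was found in 1 of the 23, MMP21, against 10.7% of all promoters, and an E-box (CACGTG) in 4, against 6.34%. The AP-1 element in the form TGANTCA was found in 0 of the 23 and in 6.57% of all promoters. Of the 16 members with a window that were not tested, 4 held the AP-1 element (ADAMTS12, MMP7, MMP10 and MMP20), 5 the TATA box, 6 the GC box and 1 the E-box. No window was used for MMP1, MMP2 and MMP3. These are letter matches in 1 window per gene and say nothing about binding, and the deposited table places the start of MMP11 and ADAMTS13 several kilobases from the RefSeq start. The untested ADAM29, ADAM21 and MMP8 were also apart, by -88690, -35067 and 2096 bases (table start minus RefSeq start).

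ADAM10 and ADAM17, the main sheddases of Notch, amyloid precursor protein and EGF-family ligands, both rose slightly. ADAM10 (ENSG00000137845, chromosome 15, 58588809 to 58749791, minus strand) was at 141, 142 and 133 CPM in sgcon and 182, 182 and 196 CPM in sgGPR91, a 1.35-fold rise (log2 fold change 0.43 ± 0.07, adjusted p = 9.37e-05). ADAM17 (ENSG00000151694, chromosome 2, 9488486 to 9556732, minus strand), the enzyme that releases TNF, was at 75.2, 66.8 and 77.7 CPM in sgcon and 92.4, 89.3 and 96.0 CPM in sgGPR91, 1.27-fold higher (log2 fold change 0.34 ± 0.08, adjusted p = 0.00233). Neither gene's groups overlapped, although ADAM17 shares 1323 exon bases with IAH1 on the opposite strand in that annotation. ADAM15, whose product binds integrins, was at 133, 130.1 and 128 CPM in sgcon and 166, 175 and 176 CPM in sgGPR91, a rise of 1.32-fold (adjusted p = 0.000132). ADAM9, another sheddase, passed only narrowly, at 86.6, 77.1 and 74.5 CPM and 90.2, 90.04 and 93.2 CPM (log2 fold change 0.20 ± 0.08, adjusted p = 0.0488). It was lost in 10 alternatives, by DESeq2 (adjusted p = 0.0849) and without sgcon replicate 2 or 3 or any sgGPR91 library (adjusted p from 0.0918 to 0.158) among them. ADAM33, at 0.112, 0.297 and 1.53 CPM in sgcon and 1.70, 1.94 and 1.89 CPM in sgGPR91, was also called higher (log2 fold change 1.64 ± 0.58, adjusted p = 0.0325). Its sgcon replicate 3 lay close to the sgGPR91 libraries, and ADAM33 passed the count filter only through sgGPR91, where it is high. The call ended in 8 alternatives, among them DESeq2 (adjusted p = 0.0501) and leaving out sgcon replicate 1 or 2 or any sgGPR91 library (adjusted p from 0.0691 to 0.152), and without sgcon replicate 3 the log2 fold change was 3.05.

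ADAMs that lack a working protease act as adhesion or receptor proteins, and in neurons ADAM11, ADAM22 and ADAM23 bind LGI proteins at synapses. Of these 3 relatives, 1 rose and 1 fell. ADAM23 (ENSG00000114948, chromosome 2, 206443532 to 206621127, plus strand) was at 15.7, 17.4 and 17.5 CPM in sgcon and 45.6, 43.9 and 51.1 CPM in sgGPR91, 2.78-fold higher (log2 fold change 1.48 ± 0.11, adjusted p = 2.55e-08). ADAM11 (ENSG00000073670, chromosome 17, 44758988 to 44781846, plus strand) was at 10.4, 12.6 and 12.9 CPM in sgcon and 3.75, 3.39 and 3.54 CPM in sgGPR91, 3.34-fold lower (log2 fold change -1.74 ± 0.20, adjusted p = 3.58e-06). Neither gene had overlapping groups. ADAM22, the most abundant of the 3 in both groups by FPKM, was at 177 ± 2.13 and 192 ± 11.1 CPM. Its log2 fold change was 0.12 ± 0.07, with a 95% normal interval of -0.01 to 0.25 and an adjusted p of 0.172. By the textbook division of the family, 6 of 7 tested ADAMs with a working protease were higher and 1 was lower, and of 4 tested ones without it 1 was higher, 1 lower and 2 did not pass. Over all genes tested, 20.2% were higher and 21.0% lower. The 6 include ADAM33, which passed the count filter only through sgGPR91, and ADAM9, whose call was lost in 10 alternatives. The 2 without a working protease that did not pass were ADAM22 and ADAM32, the latter at 2.45 ± 0.477 and 3.50 ± 1.20 CPM with overlapping groups (adjusted p = 0.208). The division by protease activity was made after the values had been seen.

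ADAMTS genes that cut proteoglycans of the aggrecan and versican type moved in both directions. ADAMTS4 (ENSG00000158859, chromosome 1, 161184302 to 161199054, minus strand), aggrecanase 1, was at 89.1, 101 and 98.5 CPM in sgcon and 168, 165 and 179.7 CPM in sgGPR91, 1.78-fold higher (log2 fold change 0.83 ± 0.07, adjusted p = 2.14e-07). ADAMTS5 (ENSG00000154736, chromosome 21, 26917922 to 26967088, minus strand), aggrecanase 2, was at 8.61, 8.31 and 9.16 CPM in sgcon and 31.7, 28.2 and 28.8 CPM in sgGPR91, 3.41-fold higher (log2 fold change 1.77 ± 0.13, adjusted p = 2.78e-08). Both aggrecanases were higher in every sgGPR91 library. ADAMTS1, which lies beside ADAMTS5 on chromosome 21, was at 9.43 ± 1.73 and 12.7 ± 1.45 CPM with overlapping groups and did not pass (adjusted p = 0.0586). The related pair ADAMTS9 and ADAMTS20 was lower. ADAMTS9 (ENSG00000163638, chromosome 3, 64515654 to 64688000, minus strand), a versican-cutting enzyme, was at 263, 263 and 283 CPM in sgcon and 212, 201 and 230.1 CPM in sgGPR91, 1.26-fold lower (log2 fold change -0.33 ± 0.07, adjusted p = 0.00156). ADAMTS20, which acts with ADAMTS9 in skin pigmentation and palate closure in mice, was at 5.03, 7.12 and 4.72 CPM and 1.70, 1.82 and 1.30 CPM, 3.52-fold lower (log2 fold change -1.81 ± 0.30, adjusted p = 0.000141). Neither of this pair had overlapping groups, and ADAMTS9 was the fifth member by FPKM in sgcon and the eighth in sgGPR91.

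ADAMTS17 and ADAMTS19 form another related pair, and both fell by over 2-fold. ADAMTS17 (ENSG00000140470, chromosome 15, 99971437 to 100342005, minus strand), linked to fibrillin microfibrils and to an inherited short-stature syndrome, was at 72.0, 75.0 and 78.5 CPM in sgcon and 31.1, 26.0 and 25.1 CPM in sgGPR91, 2.74-fold lower (log2 fold change -1.45 ± 0.09, adjusted p = 8.07e-09). ADAMTS19 (ENSG00000145808, chromosome 5, 129460281 to 129738683, plus strand), known for its part in heart valve formation, was at 134, 119.7 and 118 CPM in sgcon and 54.4, 55.8 and 48.6 CPM in sgGPR91, 2.34-fold lower (log2 fold change -1.23 ± 0.08, adjusted p = 1.05e-08). In both, each sgGPR91 library was under each sgcon library. ADAMTS10, which also binds fibrillin, was low, at 3.13, 2.37 and 2.36 CPM in sgcon and 5.90, 5.08 and 5.07 CPM in sgGPR91, and rose 2.03-fold without overlap (log2 fold change 1.02 ± 0.26, adjusted p = 0.0044). ADAMTS6, its closest relative, was at 5.52 ± 1.68 and 6.58 ± 0.437 CPM and did not pass (adjusted p = 0.369).

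The procollagen N-proteinases, which trim the amino end of fibrillar procollagens, gave 1 lower gene of 3. ADAMTS2 (ENSG00000087116, chromosome 5, 179110853 to 179345461, minus strand) was at 77.0, 89.9 and 81.7 CPM in sgcon and 56.0, 61.5 and 54.2 CPM in sgGPR91, 1.45-fold lower without overlap (log2 fold change -0.54 ± 0.08, adjusted p = 9.77e-05). ADAMTS3, which also processes VEGF-C, was at 94.0 ± 5.61 and 98.0 ± 3.06 CPM, and ADAMTS14 at 24.2 ± 5.02 and 23.3 ± 1.71 CPM, both with overlapping groups and without passing (adjusted p = 0.55 and 0.79). ADAMTS7, which cuts cartilage oligomeric matrix protein, was at 175, 198 and 259 CPM in sgcon and 253, 265 and 269.7 CPM in sgGPR91. Its sgcon replicate 3 lay inside the sgGPR91 range, and the call (log2 fold change 0.32 ± 0.11, adjusted p = 0.0222) ended in 7 alternatives, including leaving out sgcon replicate 1 or 2 or sgGPR91 replicate 2 or 3 (adjusted p from 0.0722 to 0.108). The log2 fold change was 0.21 without sgcon replicate 1 and 0.50 without sgcon replicate 3. ADAMTS7 has near-identical pseudogene copies, so its reads may be split or shared. ADAMTS13, the von Willebrand factor protease, was at 39.6 ± 7.20 and 46.1 ± 3.59 CPM and did not pass (adjusted p = 0.143). It passed without sgcon replicate 3 (adjusted p = 0.0301).

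Of the 29 members below the count filter, 10 had 0 reads in all libraries and none exceeded 23 reads in 1 library. Fitted without the filter, where 32.9% of 16535 genes passed, 3 of the 19 with reads passed. MMP9, gelatinase B, had 12, 8 and 8 reads in sgcon and 1, 1 and 2 in sgGPR91, so it was lower where MMP2 was higher (log2 fold change -2.67 ± 0.81, adjusted p = 0.0077 without the filter). The ratio of its summed reads, sgcon over sgGPR91, was 6.81 with an exact binomial 95% interval of 2.38 to 26.7, which covers counting error only. TIMP3 and ADAMTS15, a proteoglycan-cutting enzyme with 1, 0 and 4 reads in sgcon and 12, 5 and 13 in sgGPR91, were higher (log2 fold changes 1.67 and 2.51, adjusted p = 0.0153 and 0.0126 without the filter). The matrilysins MMP7 and MMP26 and the collagenases MMP8 and MMP13 were not detected. A count of 0 allows up to 3 reads, which is 0.416 CPM in sgcon replicate 3, the shallowest library, again for counting error only.

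Each tested member was set beside the genes around it on its chromosome. For 34 of the 38 tested members, the other tested genes within 5 Mb had a median log2 fold change between -0.17 and 0.18. The 4 exceptions were ADAM12 and MMP21 on distal chromosome 10, ADAMTS3 on chromosome 4 and TIMP2 on chromosome 17, with neighbour medians of -0.92, -0.87, -0.43 and -0.32. ADAM12 and MMP21 lie close together, so their neighbours are largely the same genes, and each is among the neighbours of the other. MMP21, an enzyme of left-right patterning in the embryo, was at 1.77 ± 0.508 and 0.901 ± 0.584 CPM and had a log2 fold change of -0.98 ± 0.49 (adjusted p = 0.12), close to its neighbours' median. The sgGPR91 libraries alone would not have carried MMP21 past the count filter. A lower level in sgGPR91 was therefore favoured in advance, and its closeness to that median is given as description. ADAMTS3 and TIMP2 were at 0.06 and 0.09, above their neighbours' medians. In all 27 members that passed, the difference from the neighbours' median had the sign of the member's own change. For all of them but ADAM12 this was bound to hold. Their neighbour medians lay between -0.17 and 0.18, and the smallest change that passed was 0.198, in ADAM9. The sign count therefore says nothing about the part of the surroundings in these changes, which was not tested.

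**Figure D4:**
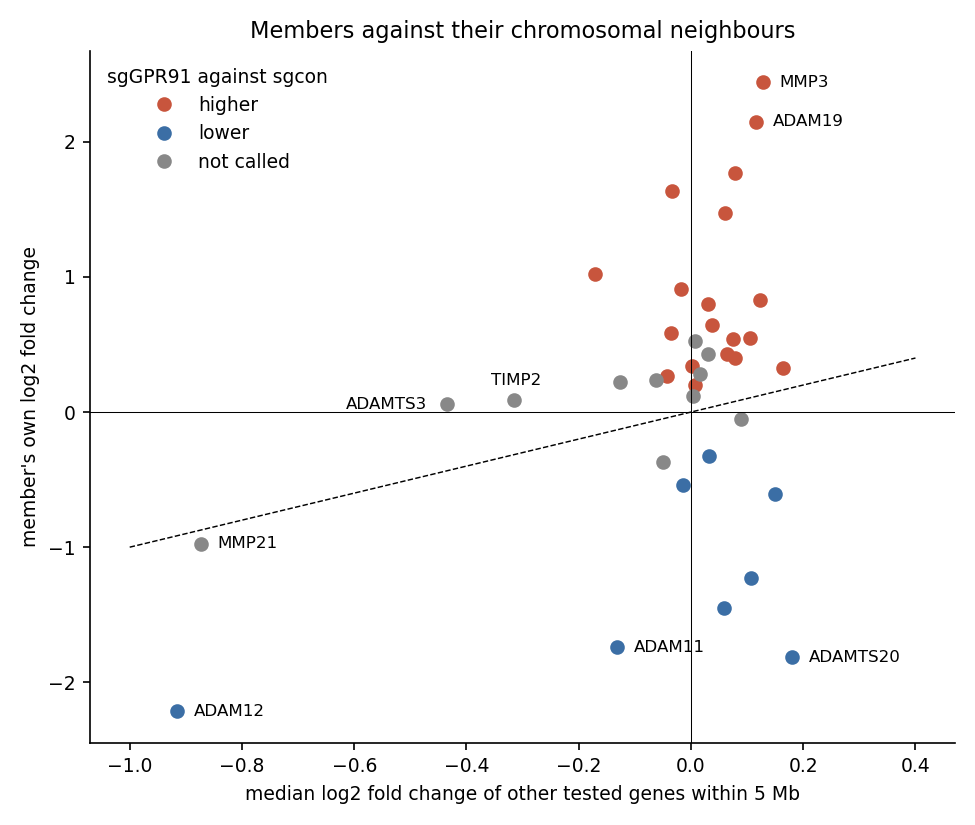
Each tested member's log2 fold change against the median log2 fold change of the other tested genes within 5 Mb, with a dashed line of equality. Most members lie near 0 on the horizontal axis, while ADAM12, MMP21, ADAMTS3 and TIMP2 lie at neighbour medians of -0.92, -0.87, -0.43 and -0.32.

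Genes that activate, block or serve these enzymes were followed in 8 lists, with 37 higher and 22 lower of 90 list entries tested, against 20.2% higher and 21.0% lower of all genes tested. The lists are short, and their counts are given as description. Of 9 tested activating proteases, 2 rose and 1 fell (list median 0.27), a share under the 41.1% that passed over all genes tested. The risers were the proprotein convertase gene FURIN, which removes the propeptide of MMP11, MMP14 and most ADAMs, from 34.6 ± 3.94 to 41.6 ± 1.17 CPM (1.21-fold), and the cathepsin gene CTSL, from 33.3 ± 3.12 to 47.7 ± 1.49 CPM (1.43-fold). PLAUR, the urokinase receptor gene, fell 1.55-fold from 6.21 ± 0.536 to 4.0 ± 0.362 CPM. Of 12 tested genes for other protease inhibitors and clearance or inducing factors, 6 rose and 2 fell (median 0.58). The testican gene SPOCK2 rose from 10.8 ± 0.628 to 43.4 ± 2.74 CPM (4.01-fold), whereas its relatives SPOCK1 and SPOCK3 fell 1.85-fold, from 197 ± 16.4 to 106 ± 4.05 CPM, and 1.97-fold, from 7.55 ± 1.36 to 3.79 ± 0.391 CPM. PCSK1N, encoding an inhibitor of a proprotein convertase, and SERPINE2, encoding a serine protease inhibitor, rose 2.17-fold, from 21.1 ± 1.39 to 45.8 ± 9.25 CPM, and 2.14-fold, from 25.3 ± 1.12 to 54.2 ± 0.892 CPM.

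Partners and relatives gave counts in both directions. Of 11 sheddase partners, 2 rose and 3 fell (median -0.01), a share near the 41.1% that passed over all genes tested. RHBDF2, which encodes iRhom2, a carrier that brings ADAM17 to the cell surface, fell 2.00-fold from 27.6 ± 2.14 to 13.8 ± 2.10 CPM, while FRMD8, whose product stabilises iRhoms, rose 1.46-fold from 28.3 ± 4.35 to 41.3 ± 3.49 CPM. Among tetraspanins that steer ADAM10, TSPAN33 and TSPAN5 fell 1.95-fold and 1.27-fold and TSPAN17 rose 1.45-fold. ADAMTS-like genes, which encode relatives without a protease, gave 1 higher and 3 lower of 5 (median -0.85), with ADAMTSL2 and ADAMTSL4 falling 2.33-fold and 1.81-fold and THSD4 rising 1.96-fold from 17.3 ± 3.09 to 33.6 ± 3.45 CPM. The remaining lower gene, ADAMTSL1, stayed under 5 CPM in both groups. Of 4 astacin and neprilysin relatives tested, 2 rose and 1 fell (median 0.05), namely PCOLCE2 and PCOLCE, which encode enhancers of procollagen processing, 1.74-fold and 1.16-fold higher, and the endothelin-converting enzyme gene ECE1, 1.29-fold lower.

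Among 24 tested genes whose membrane proteins are shed by these enzymes, 14 rose and 4 fell (median 0.26). IL6R rose from 5.38 ± 1.37 to 15.5 ± 1.38 CPM (2.92-fold), HBEGF from 2.89 ± 0.406 to 7.65 ± 1.36 CPM (2.63-fold) and the hyaluronan receptor gene CD44 from 92.7 ± 6.38 to 197 ± 5.43 CPM (2.12-fold). The neuregulin receptor gene ERBB4 fell from 18.5 ± 1.07 to 4.01 ± 0.894 CPM (4.60-fold), and the adhesion gene NCAM1 and the receptor gene NOTCH1 fell 1.78-fold and 1.52-fold. Of 12 tested matrix substrates, 5 rose and 5 fell (median 0.18). The basement membrane collagen genes COL4A2 and COL4A1 fell 4.70-fold, from 124 ± 12.4 to 26.3 ± 2.30 CPM, and 4.09-fold, from 56.3 ± 4.92 to 13.7 ± 1.12 CPM, and NID1, encoding nidogen, fell 1.37-fold. The fibrillin gene FBN1, RELN, which encodes the guidance protein reelin, and LTBP1 rose 2.39-fold, 2.31-fold and 1.67-fold. AP-1 and ETS factors, which are known to bind several MMP promoters, gave 5 higher and 3 lower of 13 (median 0.12). FOS, JUN and JUNB, subunits of AP-1, fell 11.7-fold, 1.60-fold and 1.55-fold, and the ETS genes ETS1, ELK3 and FLI1 rose, ETS1 from 96.4 ± 10.6 to 162 ± 1.48 CPM, ELK3 from 77.5 ± 2.36 to 116 ± 2.63 CPM and FLI1 from 4 reads in all sgcon libraries to 128. FLI1 passed the count filter only through sgGPR91, where it is high, so its direction was bound to be higher.

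**Figure D5:**
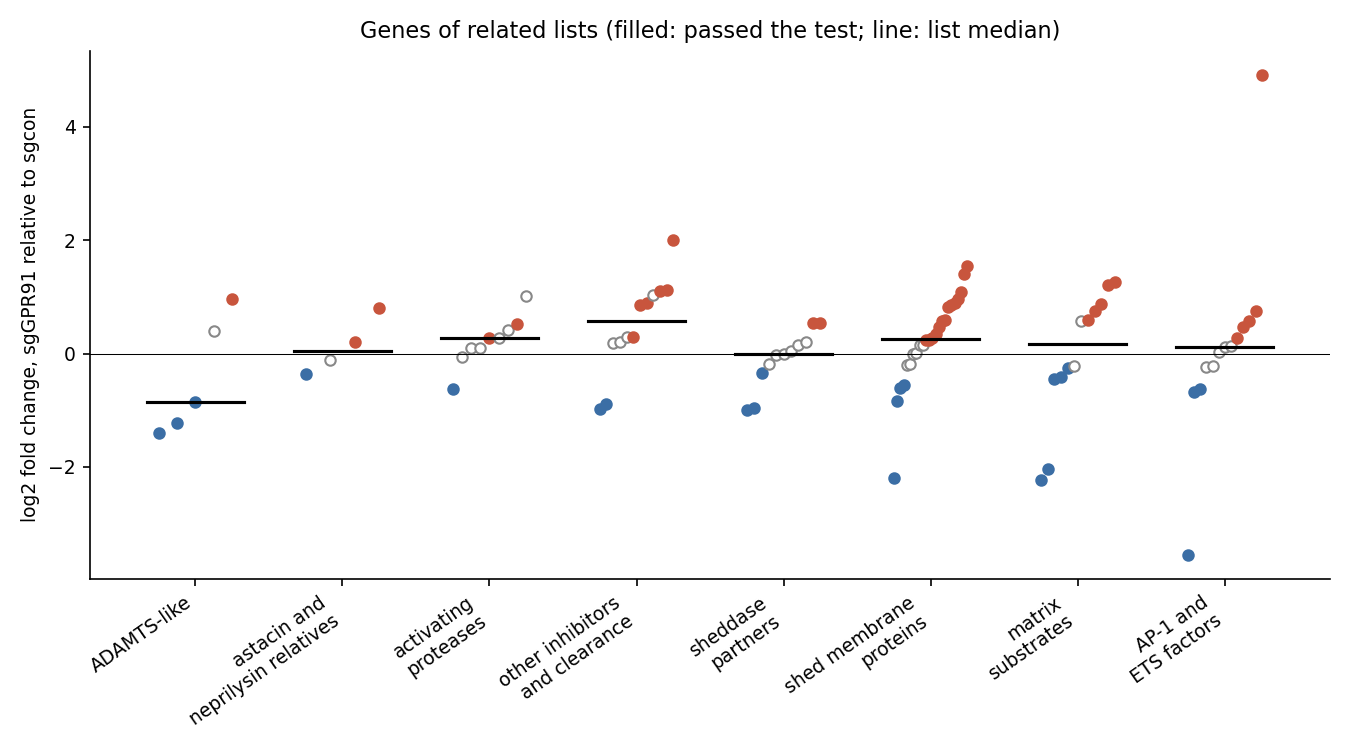
Log2 fold change of each tested gene in 8 lists related to the metalloproteinases, with filled red for higher, filled blue for lower, open for genes that did not pass and a black line for the list median. The list of other protease inhibitors and clearance or inducing factors has the highest median, 0.58, and the ADAMTS-like genes the lowest, -0.85.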

How the data were processed

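RNA from 6 libraries was sequenced, and the authors deposited 1 table with whole-number read counts and FPKM per gene, per the file headers. HISAT2, Bowtie2 and RSEM are named in the submitters' processing notes, without versions or roles; the genome build and strand setting are not given in the sources used here. The deposited FPKM equalled the count divided by listed gene length and by the column total, scaled for all 90322 values above 0. Counts were tested with edgeR 4.0.16 in R 4.3.3 (filterByExpr, minimum count 10 and minimum total 15; TMM scaling; quasi-likelihood test without covariate; Benjamini-Hochberg adjustment over 12701 genes). CPM are TMM-scaled, and the SE is the absolute log2 fold change over the square root of F. The procedure was tested on simulated data. Alternatives used DESeq2 1.42.0, limma 3.58.1 on log2(FPKM + 1) and log2(FPKM + 0.1), other scalings and filters, a replicate block and 6 runs that each left out a library. By the rule for named genes, per-library values are given for members that passed with at least 5 CPM in a group and for tested TIMPs, values for members that passed under 5 CPM (MMP3 and ADAM33, here per library), values for members that did not pass where they were above 20 CPM or the highest by FPKM of their subgroup, neighbour medians (here as a range and 4 exceptions), and up to 3 genes per direction of each list with at least 5 CPM. MMP21, MMP24, ADAM32, ADAMTS1, ADAMTS6, the members below the filter and ADAMTSL1 were named after their values were seen. Members and lists were chosen with earlier results of these data known; the promoters and motifs were chosen after the values had been seen. Exon overlaps come from GENCODE release 29, which holds all 67 identifiers. RefSeq promoters matched 40 members by symbol and 39 were used. Windows on chromosome 8 were left out of the motif counts, and the reason is not given here. Protein sequences were not used here, so ADAMs were divided by textbook knowledge. Single genes of the Schwann cell list are not reported here.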

Additional observations from a re-analysis of the deposited data

How the results depend on the processing

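Over the 15 alternatives, the members called higher numbered 15 to 21 and those called lower 8 to 9, against 19 and 8, and the list genes 31 to 41 higher and 20 to 23 lower, against 37 and 22. Counts over all genes stayed between 2030 and 2822 higher and between 2078 and 2886 lower, against 2560 and 2661. Of the 27 members that passed, 4 lost the call in at least 1 alternative, namely ADAM9, ADAM33, ADAMTS7 and MMP16, and MMP3 and ADAM33 could not be tested at a minimum count of 30. ADAMTS14, which did not pass, ran from -0.22 to 0.035 over the runs that left out 1 library and turned positive without sgcon replicate 2 (0.032) and without sgcon replicate 3 (0.035); the cause was not tested. On log2(FPKM + 1) the fold changes of low members shrank, as a pseudocount must make them, to -0.63 for ADAM12 and 1.16 for MMP3. Deviations of same-numbered libraries correlated at 0.146, 0.0169 and 0.0837, and those of differently numbered libraries at -0.126 to 0.0528. Deviations were centred within groups of 3, so this check cannot decide whether same-numbered libraries were paired, and the labels do not state it. With the replicate block, 21 members were higher and 8 lower, and ADAMTS13 passed (log2 fold change 0.23, adjusted p = 0.0485). Depth limits the members below the count filter.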
